A study of Mus musculus with 26 samples.

Results

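The transcripts described here are those of the mouse oocyte transcriptome that carry an identifier starting with CUFF. Of the 38540 rows of the deposited count table, 810 had such an identifier, and 807 of them, each from a different numbered locus, were kept. The other 3 had at least 1 count in all 9 NSN oocytes and no count in at least 10 SN oocytes, and were left out because transcripts with that pattern were set aside. That exclusion uses measured counts and removes transcripts that are low in SN oocytes, so the number of falls below is a number after that removal. Rows with an identifier starting with TCONS_, of which 36625 of 36694 were kept by the same exclusion, served as the comparison.

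Identifiers of this form are the ones that transcript assembly programs of the Cufflinks family write. CUFF numbers are given when aligned reads of a library are first assembled into loci, and TCONS_ numbers when separate assemblies are compared and merged into a common set. Mouse oocytes are known for many transcripts outside the standard annotation, among them transcripts that start in retrotransposons, which is why a transcriptome assembled from oocytes is often used to count oocyte reads. At the end of growth the germinal vesicle (GV) oocyte passes from a non-surrounded nucleolus (NSN) configuration, in which the genome is transcribed, to a surrounded nucleolus (SN) configuration, in which transcription is largely silent and RNA levels depend on the stability of stored transcripts.

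Polyadenylated RNA was measured in 26 single fully-grown GV oocytes, of which 9 were NSN, 16 were SN and 1 was intermediate. All came from 2 wildtype C57Bl6/Babr females, mouse C and mouse D, aged 12 weeks, and cumulus cells had been removed. Each nucleus was scored by Hoechst staining for its heterochromatin ring, which was absent in NSN, partial in the intermediate and complete in SN oocytes. Mouse C gave 5 NSN and 9 SN oocytes and mouse D 4 NSN and 7 SN oocytes, so that the p-values below measure the spread between oocytes of these mice rather than between animals.

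Total counts ranged from 1358383 to 3647827 per oocyte, with a median of 2690652 in NSN and 2069699 in SN oocytes. A transcript without a count may still be present at up to 2.21 CPM (counts brought to a common library total) in the smallest library and 0.822 CPM in the largest, for counting error only. Names limited the check of cell identity, since 5 of 17 oocyte markers and 1 of 15 granulosa and cumulus markers could be paired with a row. Among the oocyte markers, median levels in NSN and SN oocytes were 3736 and 2205 CPM for Zp3, a zona pellucida glycoprotein, 566 and 385 CPM for the transcription factor gene Nobox, and 43.1 and 19.7 CPM for Nlrp4c. The oocyte-secreted protein genes had the opposite order, with medians of 546 and 961 CPM for Oosp1 and 501 and 909 CPM for Oosp3. Amh, a hormone of granulosa cells, had medians of 1.33 and 0 CPM. The highest Amh value was 10.1 CPM in NSN and 4.23 CPM in SN oocytes, and its part in the results below was not tested. The symbols of all these marker rows came from the study's lists of SN-missing and NSN-SN classifier transcripts. Both lists were chosen by differences between NSN and SN in these same oocytes. The order of the stages in these markers is therefore not an independent observation.

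CUFF transcripts were rare and sparsely detected. A count in at least 1 of the 25 NSN and SN oocytes was found for 463 of the 807 transcripts (57.4%), against 26889 of the 36625 TCONS_ rows (73.4%), and 344 CUFF transcripts (42.6%) had none in any of these oocytes. Detection in a single oocyte accounted for 101 of the 463 (21.8%), with at most 6 counts there, compared with 9.21% of the detected TCONS_ rows. At the other end, 60 CUFF transcripts (13% of those detected) had a count in all 25 oocytes, compared with 45.4% of the detected TCONS_ rows.

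Abundance followed the same order. All levels are in CPM and not per length, because the deposited counts come without transcript lengths, so a short transcript and a rare transcript look alike on this scale. Over detected transcripts, the median of the mean CPM was 0.164 for CUFF (quartiles 0.0361 and 0.960) and 2.20 for TCONS_ (quartiles 0.186 and 22.4). The highest mean was 313 CPM among CUFF and 7148 CPM among TCONS_ rows. Within stages the medians were 0.177 CPM in NSN and 0.136 CPM in SN oocytes for CUFF, and 2.45 and 2.00 CPM for TCONS_. A sum of fewer than 10 counts over the 25 oocytes was found for 48.2% of the detected CUFF and 23.2% of the detected TCONS_ rows.

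**Figure D1:**
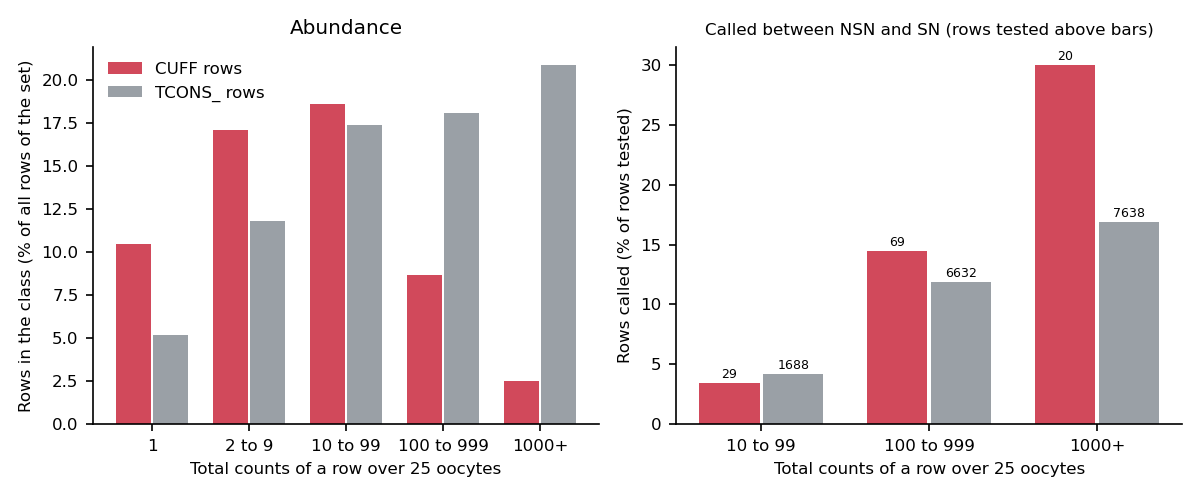
Left, rows of each set (percent of all rows of the set, including those without a count) by the total counts of a row over 25 NSN and SN oocytes; right, rows called by edgeR as percent of rows tested, with the number tested above each bar. Rows without a count (42.6% of CUFF and 26.6% of TCONS_ rows) are not drawn. Among rows with a count, CUFF rows peak at 10 to 99 total counts and TCONS_ rows at 1000 or more, and the called share rises with total counts in both sets, to 30% of 20 CUFF and 16.9% of 7638 TCONS_ rows.

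Few transcripts carried most CUFF counts. CUFF.2160.1 alone held 15.3% of all counts on CUFF transcripts, the 3 most counted held 39.5%, 8 held 60.7% and 50 held 90.5%. Because detection depends on counts, CUFF and TCONS_ rows were also set side by side within classes of total counts. Among rows with 10 to 99 counts in total, the 150 CUFF transcripts were found in a median of 11 oocytes (quartiles 8 and 16) and the 6388 TCONS_ rows in a median of 13 (quartiles 9 and 18). Among rows with 2 to 9 counts the median was 3 oocytes in both sets.

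Each oocyte held only a small part of the CUFF set. CUFF transcripts took 0.151% to 0.269% of the counts of an NSN oocyte, with a median of 0.222%, and 0.142% to 0.258% of an SN oocyte, with a median of 0.193%. Means were 0.218% ± 0.0326 (SD, n = 9) and 0.199% ± 0.0380 (SD, n = 16), so the difference was smaller than the spread within either stage. In all, 13 of the 16 SN oocytes lay within the NSN range and 3 below it, and the intermediate oocyte was lower than every other oocyte at 0.130%. Mouse D had the higher mean share in both stages (0.237% against 0.203% in NSN, 0.223% against 0.180% in SN).

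Fewer CUFF transcripts had a count in most SN than in NSN oocytes. In NSN oocytes their number ran from 177 to 220, with a median of 200, and in SN oocytes from 129 to 216, with a median of 172.5. Of the 16 SN oocytes, 10 lay below every NSN oocyte and the intermediate oocyte had 144. Deeper libraries held more CUFF transcripts, and the 3 shallowest libraries were all SN, so the counts of every library were also drawn down to the smallest total.

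At equal depth an NSN oocyte held 166.7 ± 12.3 (SD, n = 9) CUFF transcripts and an SN oocyte 148 ± 12.6 (SD, n = 16), which is -18.7 transcripts relative to NSN. NSN oocytes then ranged from 146 to 186 and SN oocytes from 129 to 169, with 8 of 16 SN oocytes below every NSN oocyte. As a percent of the NSN mean, SN oocytes kept 88.8% of the CUFF number and 94.7% of the TCONS_ number. Counted against 1000 detected TCONS_ rows, an NSN oocyte held 9.44 ± 0.626 (SD, n = 9) CUFF transcripts and an SN oocyte 8.85 ± 0.577 (SD, n = 16). On this ratio 4 of 16 SN oocytes lay below the NSN range, and the intermediate oocyte was lowest at 7.77. Neither comparison matches abundance, and a larger part of the CUFF rows was sparse. As deposited, CUFF rows with 10 to 99 total counts were found in a mean of 55.6% of NSN and 44.8% of SN oocytes. For TCONS_ rows these means were 61.2% and 47.9%. With 2 to 9 counts they were 16.4% and 10.3% for CUFF, and 16.1% and 9.97% for TCONS_. With 1 count they were 6.93% and 2.35%, and 5.89% and 2.94%. The part of abundance was not tested.

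**Figure D2:**
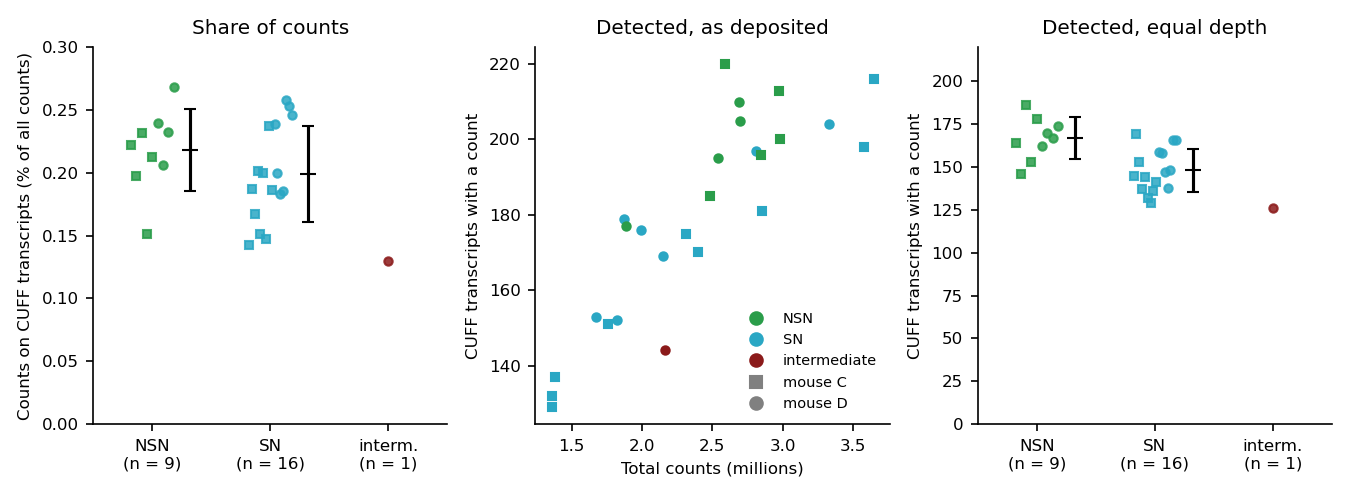
Each point is 1 oocyte, coloured by stage and shaped by mouse, with black bars for the mean and SD of a stage. From left to right, the percent of an oocyte's counts on CUFF transcripts (0.130% in the intermediate oocyte), the number of CUFF transcripts with a count against total counts, and that number after every library was drawn down to 1358383 counts, where NSN oocytes hold 146 to 186 and SN oocytes 129 to 169.

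Looking at transcripts rather than oocytes, 321 of the 463 detected CUFF transcripts were found in both stages, 81 in NSN only and 61 in SN only. The detected share of oocytes was higher in NSN for 261 (56.4% of those detected) and higher in SN for 142 transcripts (30.7%). For TCONS_ rows these numbers were 10050 (37.4%) and 4629 (17.2%). All of these compare 9 NSN with 16 SN oocytes at deposited depth, whose median was lower in SN oocytes. Rows with an equal share in both stages count for neither. Among them are the rows with a count in all 25 oocytes, 13% of detected CUFF and 45.4% of detected TCONS_ rows. The percentages therefore do not show a stronger lean to NSN in the CUFF set. Rows found in 1 stage only were mostly those with the fewest counts, and they made up a larger part of the CUFF set (17.5% NSN only and 13.2% SN only) than of the TCONS_ set (7.40% and 6.39%).

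To compare levels between stages, edgeR's quasi-likelihood test was fitted to the 16657 rows that had 3 or more counts in 9 or more oocytes. This filter kept 118 CUFF transcripts (14.6% of the 807, and 25.5% of those detected) and 15958 TCONS_ rows (43.6%). A transcript present in NSN oocytes alone could pass this filter only with 3 or more counts in all 9 NSN oocytes. The exclusion would then leave it out of the CUFF set. A transcript present in SN oocytes alone could pass with 9 of the 16 SN oocytes and was not excluded. At an adjusted p under 0.05, 17 CUFF transcripts were called (14.4%), 14 lower and 3 higher in SN oocytes, where the background over all rows tested was 13.5%. Called falls were 11.9% of the CUFF transcripts tested against a background of 8.07%, and called rises 2.54% against 5.41%. The CUFF share called was therefore near the background. These backgrounds cover all rows tested and are not matched for abundance. At an unadjusted p under 0.05, 26 of the 118 CUFF transcripts (22.0%) passed edgeR's test, against a background of 26.8%.

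As a group, the tested CUFF transcripts were centred near no change. Their median log2 fold change was -0.07 (quartiles -0.50 and 0.20), with 65 negative and 53 positive values, and the median over all rows tested was 0.01. Among rows with 100 or more and under 1000 counts in total, 10 of 69 CUFF transcripts (14.5%) were called, 9 of them lower in SN. Of the TCONS_ rows in this class 11.9% were called, 724 lower and 63 higher in SN, so falls prevailed in both sets. With 1000 or more counts, 4 CUFF transcripts were called lower and 2 higher, and 489 TCONS_ rows lower and 799 higher. With scaling by library size alone the split of calls was 16 lower and 1 higher, in place of 14 and 3.

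**Figure D3:**
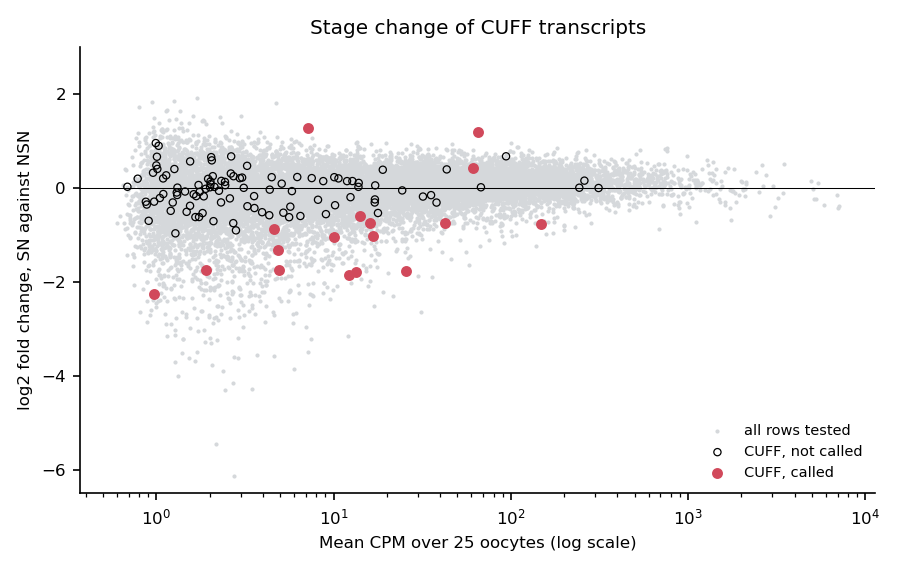
Log2 fold change of SN against NSN oocytes by mean CPM over 25 oocytes (log scale) for all 16657 rows tested (grey), the 101 CUFF transcripts not called (open circles) and the 17 called (filled circles). The called CUFF transcripts comprise 14 falls between -0.59 and -2.26 and 3 rises between 0.43 and 1.28.

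CUFF.4825.1 showed the clearest fall. NSN oocytes held 25.5 to 82.0 CPM, with a median of 44.4, and SN oocytes 7.03 to 22.9 CPM, with a median of 13.7. Every SN oocyte lay below every NSN oocyte, and the intermediate oocyte, at 28 CPM, was near the low end of the NSN range. Its log2 fold change was -1.77 (SE 0.17, edgeR adjusted p = 5.81e-09), with -1.43 in mouse C and -2.08 in mouse D. It was the only CUFF transcript tested whose stages did not overlap in this direction, which was the case for 0.306% of all rows tested.

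A further pair fell by a similar amount from a lower level. CUFF.21851.1 ranged from 10.3 to 59.4 CPM in NSN (median 21.6) and from 1.80 to 16.9 CPM in SN oocytes (median 5.80), with a log2 fold change of -1.79 (SE 0.269, edgeR adjusted p = 1.68e-05). Of the 16 SN oocytes 13 lay below every NSN oocyte. CUFF.18646.1 ranged from 7.29 to 53.4 CPM in NSN (median 17.3) and from 0 to 12.6 CPM in SN oocytes (median 6.68), with a log2 fold change of -1.86 (SE 0.323, edgeR adjusted p = 0.000126). Here 11 SN oocytes lay below every NSN oocyte, and the intermediate oocyte was low at 1.90 CPM, as it was for CUFF.21851.1 at 3.79 CPM.

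CUFF.35023.1 and CUFF.32552.1 fell to about the same degree as each other. CUFF.35023.1 had 14.2 to 50.4 CPM in NSN (median 21.8) and 6.44 to 19.6 CPM in SN oocytes (median 11.8), a log2 fold change of -1.03 (SE 0.184, edgeR adjusted p = 0.000175). CUFF.32552.1 had 9.01 to 20.6 CPM in NSN (median 15.04) and 3.3 to 11.5 CPM in SN oocytes (median 7.44), a log2 fold change of -1.04 (SE 0.198, edgeR adjusted p = 0.000402). For each, 12 of 16 SN oocytes lay below the lowest NSN oocyte.

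Less abundant transcripts with called falls reached 0 in single oocytes. CUFF.16555.1 had a median of 8.79 CPM in NSN (3.37 to 12.0) and 2.93 CPM in SN oocytes (0.468 to 5.94), with a log2 fold change of -1.33 (SE 0.262, edgeR adjusted p = 0.000577). CUFF.43463.1 had a median of 8.98 CPM in NSN (2.65 to 13.2) and 1.58 CPM in SN oocytes (0 to 7.03), with a log2 fold change of -1.75 (SE 0.348, edgeR adjusted p = 0.000637). The stages overlapped for both, with 10 and 9 SN oocytes below every NSN oocyte. The intermediate oocyte had no count of CUFF.16555.1 and 1.42 CPM of CUFF.43463.1.

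CUFF.16837.1 fell by 0.75 on the log2 scale (SE 0.181, edgeR adjusted p = 0.00436), from a median of 21.4 CPM in NSN (12.6 to 33.7) to 11.6 CPM in SN oocytes (7.46 to 24.6). Its fall was called in mouse D (log2 fold change -0.92) and not in mouse C (-0.61, edgeR adjusted p = 0.14). CUFF.50084.1 had the same log2 fold change of -0.75 (SE 0.194, edgeR adjusted p = 0.00758), with 33.1 to 98.0 CPM in NSN and 15.9 to 72.5 CPM in SN oocytes, and the mice in the opposite order: called in mouse C (-0.99) and not in mouse D (-0.43, edgeR adjusted p = 0.485). For neither was the difference between mice called, as given below.

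The most abundant transcript with a called change was CUFF.19128.1. NSN oocytes held 94.8 to 263 CPM (median 221) and SN oocytes 44.8 to 267 CPM (median 97.8), a log2 fold change of -0.76 (SE 0.229, edgeR adjusted p = 0.0236). The SN oocytes were spread widely, 8 below every NSN oocyte but C-14 and C-21 above every NSN oocyte. The call rested on single oocytes: without NSN oocyte D-34 or NSN oocyte C-6 it was lost, with an adjusted p of up to 0.0537.

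Among the remaining falls, CUFF.34396.1 (3 to 22 counts per NSN oocyte, 0 to 6 per SN oocyte) had a log2 fold change of -1.75 (SE 0.459, edgeR adjusted p = 0.00877). CUFF.36743.1 and CUFF.11278.1 had smaller ones of -0.88 and -0.59, and the adjusted p of CUFF.11278.1, 0.0492, was the closest to the threshold. Both of these were called in neither mouse alone. With mouse as a term in the fit CUFF.11278.1 lost its call (edgeR adjusted p = 0.0514), and the other 16 transcripts called were called again.

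Only 4 of the 810 CUFF identifiers were paired with a gene symbol in the study's lists of SN-missing and classifier transcripts. Symbols were sought in these lists only, and transcripts entered them for differing between NSN and SN oocytes. Positions of the CUFF transcripts themselves were not used here. Whether any of the 4 is exonic, intronic or antisense to its gene was therefore not determined, and because the counting's use of strand is not given in the sources used here, reads of overlapping genes cannot be told apart. CUFF.25386.1 was paired with Myo3a, a motor protein of the class III myosins known from sensory hair cells, at chromosome 2, 22227503 to 22618252, plus strand (GRCm38, GENCODE vM21). NSN oocytes had 0 to 13 counts of it (median 5) and SN oocytes 0 to 4 (median 0), and it was detected in 8 NSN and 7 SN oocytes. The fall was -2.26 on the log2 scale (SE 0.573, edgeR adjusted p = 0.00663), called in mouse D (-3.44) and not in mouse C (-1.45, edgeR adjusted p = 0.314).

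Called rises were fewer than falls. CUFF.19525.1 ranged from 8.65 to 93.6 CPM in NSN (median 29.5) and from 10.3 to 152 CPM in SN oocytes (median 72.6), with a log2 fold change of 1.19 (SE 0.366, edgeR adjusted p = 0.0254). CUFF.12555.1 ranged from 0 to 12.5 CPM in NSN (median 3.64) and from 1.66 to 20.7 CPM in SN oocytes (median 8.45), with a log2 fold change of 1.28 (SE 0.428, edgeR adjusted p = 0.0416). CUFF.32126.1 ranged from 27.3 to 67.0 CPM in NSN (median 48.3) and from 39.1 to 95.1 CPM in SN oocytes (median 65.3), with a log2 fold change of 0.43 (SE 0.142, edgeR adjusted p = 0.0405). The stages overlapped for all 3, with 6, 3 and 7 SN oocytes above every NSN oocyte, and 0 of 118 CUFF transcripts had all SN above all NSN oocytes, as 0.072% of all rows tested did.

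**Figure D4:**
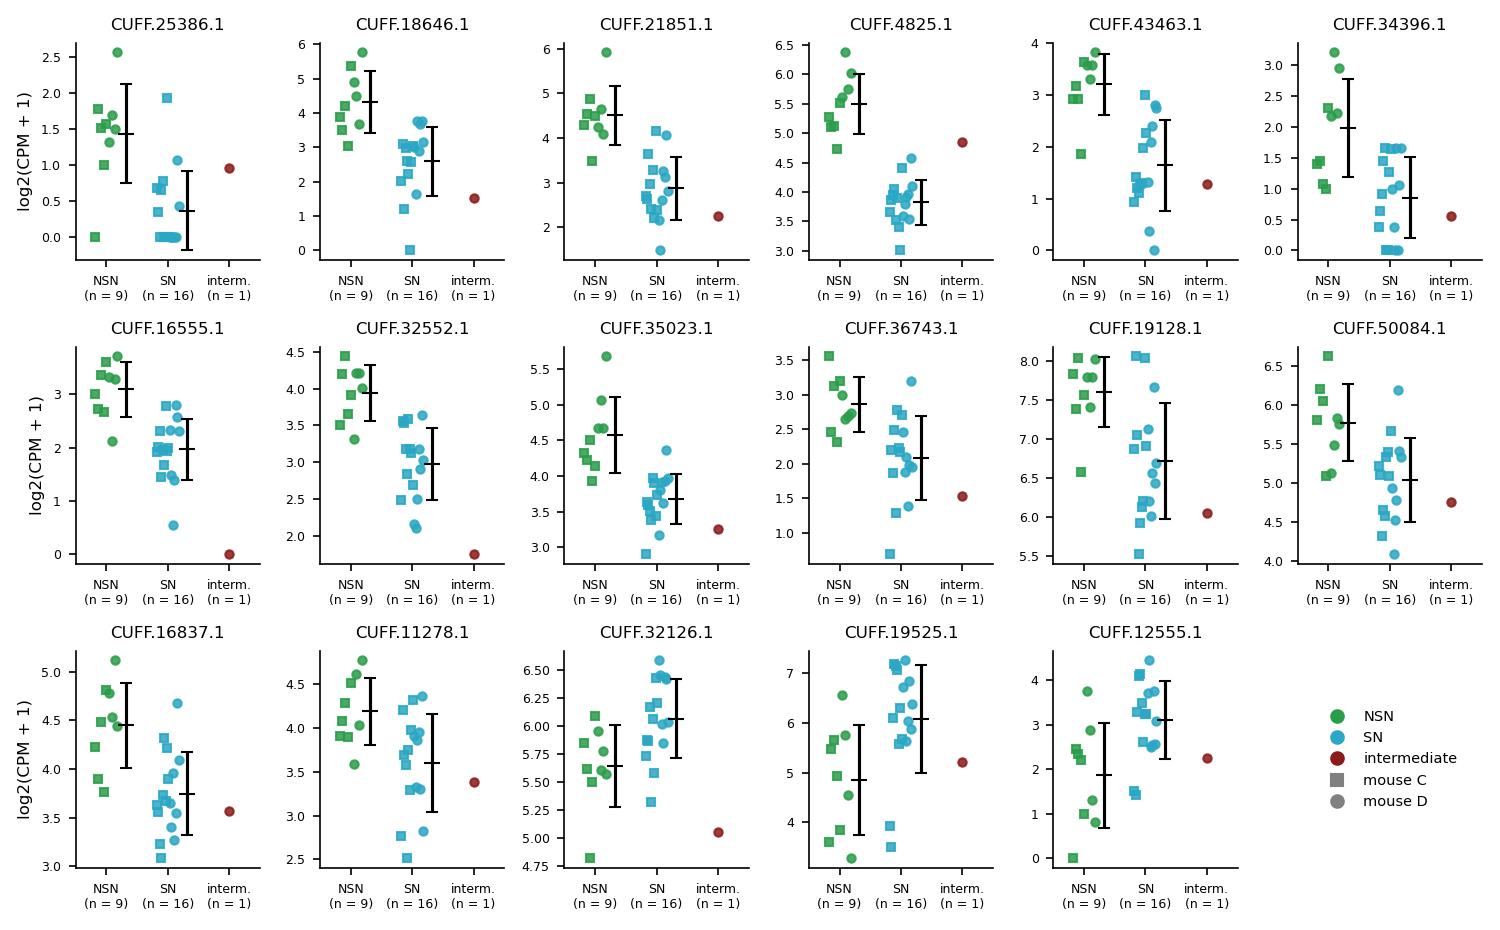
Level of each of the 17 called CUFF transcripts in every oocyte as log2(CPM + 1), ordered by fold change from the largest fall to the largest rise, with colour for stage, shape for mouse and black bars for mean and SD. Only in CUFF.4825.1 are all 16 SN oocytes below all 9 NSN oocytes, and the vertical axes differ between panels and do not start at 0.

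All 14 falls were negative in both mice, with 8 called in mouse C, 10 in mouse D and 6 in both. All 3 rises were positive in both mice, and 0 were called in either. In 25 fits that each left out 1 oocyte, 11 of the 14 falls and 0 of the 3 rises were called every time. Of the other falls, CUFF.11278.1 lost its call in 16 of the 25 fits, more than any rise, and CUFF.19128.1 and CUFF.36743.1 lost it in 2 each. Among rises CUFF.19525.1 lost its call in 4 fits, CUFF.32126.1 in 14 and CUFF.12555.1 in 15, and without NSN oocyte C-12, D-30 or D-34 the number of rises called was 0.

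No difference of the stage effect between mice was called by edgeR among CUFF transcripts, 0 of 118, with 5 at an unadjusted p under 0.05, where the background was 0% adjusted and 5.98% unadjusted. Levels did not reach the threshold between mice either, with 0 of 118 called by edgeR and 12 at an unadjusted p under 0.05 (background 0.036% and 10.7%). The smallest adjusted p between mice was that of CUFF.39178.1, 0.0961 by edgeR, which was higher in mouse D by 0.58 on the log2 scale. Within mouse C 8 of 118 CUFF transcripts were called (6.78%, background 4.5%) and within mouse D 10 (8.47%, background 4.35%), all of them lower in SN.

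The 3 CUFF transcripts with the highest mean CPM were not called. CUFF.2160.1, the most counted, had 180 to 477 CPM in NSN (median 287) and 218 to 463 CPM in SN oocytes (median 300), with a log2 fold change of -0.00 (edgeR adjusted p = 0.998). CUFF.39178.1 had medians of 240 and 260 CPM, and CUFF.20213.1 had medians of 256 and 232 CPM, with log2 fold changes of 0.16 and 0.01. CUFF.45025.1 was the steadiest of the 8 with the highest mean, at 53.8 to 86.9 CPM in NSN and 57.2 to 81.6 CPM in SN oocytes, an SD of 11.8% of its mean over 25 oocytes. Of these 8, 3 were called: CUFF.19128.1, CUFF.19525.1 and CUFF.32126.1. The background over all rows tested was 13.5%. Among rows with 1000 or more total counts, 30% of 20 CUFF and 16.9% of 7638 TCONS_ rows were called.

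The SD as a percent of the mean was greatest, among the 36 CUFF transcripts averaging 20 counts or more, in CUFF.18646.1 (102%), CUFF.21851.1 (90.9%), CUFF.4825.1 (75.8%) and CUFF.48548.1 (74.8%). The first 3 of these fell between stages. CUFF.48548.1 did not pass the test, with 3.74 to 30.02 CPM in NSN (median 8.62) and 0 to 20.8 CPM in SN oocytes (median 6.04) and a log2 fold change of -0.56 (edgeR adjusted p = 0.359).

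Another 3 CUFF transcripts varied together across oocytes, 2 of which are called rises. Over 25 oocytes, the log2(CPM + 1) of CUFF.10835.1 and CUFF.19525.1 had a Pearson r of 0.96 (Spearman rho 0.95), and r was 0.96 in NSN and 0.97 in SN oocytes alone. CUFF.12555.1 had r = 0.95 with CUFF.19525.1 and 0.91 with CUFF.10835.1. These were the only pairs above 0.9 among the 1378 pairs of the 53 CUFF transcripts averaging 10 counts or more, whose median r was 0.13. The pairs were looked for after the values had been seen, and oocytes share a mouse and differ in depth.

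The shared pattern set oocytes apart within stages. The same 6 oocytes were lowest in all 3 transcripts, NSN oocytes C-8, C-12, D-30 and D-34 and SN oocytes C-13 and C-14. SN oocytes C-17, C-18 and D-12 were among the 4 highest in all 3. CUFF.10835.1 spanned 19.02 to 196 CPM and CUFF.19525.1 8.65 to 152 CPM over the 25 oocytes, a 10.3-fold and a 17.6-fold range. Over the 19 oocytes other than the 6 lowest, r was 0.90 for CUFF.10835.1 with CUFF.19525.1, 0.92 for CUFF.19525.1 with CUFF.12555.1 and 0.82 for CUFF.10835.1 with CUFF.12555.1.

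Depth moved with these levels. SN oocytes C-13 and C-14, with 3576069 and 3647827 counts, were the deepest libraries, and the r with log2 total counts was -0.45 for CUFF.10835.1, -0.51 for CUFF.19525.1 and -0.38 for CUFF.12555.1. SN oocyte D-12, among the highest, had 3332029 counts. With the number of TCONS_ rows detected, r was -0.42 for CUFF.10835.1, -0.54 for CUFF.19525.1 and -0.45 for CUFF.12555.1. The part of depth and of the number of rows detected in the shared pattern was not tested.

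CUFF.10835.1 itself, with medians of 62.2 CPM in NSN and 97.8 CPM in SN oocytes, had a log2 fold change of 0.67 that did not pass the test (edgeR adjusted p = 0.166). Counts of CUFF.19525.1 per count of CUFF.10835.1 were 0.501 ± 0.114 (SD, n = 9 NSN oocytes) and 0.738 ± 0.128 (SD, n = 16 SN oocytes), with ranges of 0.288 to 0.698 and 0.440 to 0.963. The level most like CUFF.10835.1 was that of TCONS_00063436 (r = 0.99, mean 99.2 CPM) and TCONS_00066323 (r = 0.99, mean 99.3 CPM), closer than either of the other CUFF transcripts. These TCONS_ rows had log2 fold changes of 0.787 and 0.788, and the mean of CUFF.10835.1 was 94.1 CPM. In all, 7 rows had r over 0.9 with CUFF.10835.1, 11 with CUFF.19525.1 and 8 with CUFF.12555.1. Whether reads were counted in common among CUFF.10835.1, CUFF.19525.1, CUFF.12555.1 and these TCONS_ rows was not tested. The called rises of CUFF.19525.1 and CUFF.12555.1 are therefore not established as separate results.

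**Figure D5:**
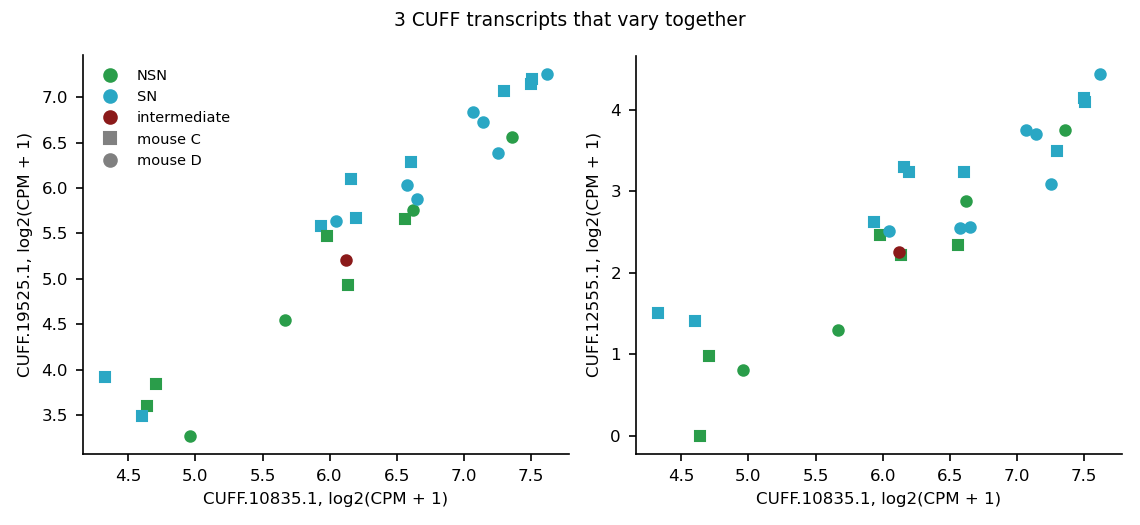
Level of CUFF.19525.1 (left) and CUFF.12555.1 (right) against CUFF.10835.1 as log2(CPM + 1) in 26 oocytes, coloured by stage and shaped by mouse. The points rise together (r = 0.96 and 0.91 over the 25 NSN and SN oocytes), with 4 NSN and 2 SN oocytes at the low end.

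Some CUFF transcripts could hardly be told from a TCONS_ row by their counts. For each row with a mean of at least 10 counts, the squared difference of its count from that of another row, divided by their sum, was averaged over 25 oocytes, a measure that is near 1 for independent counts of equally abundant transcripts. A value under 0.25, a limit chosen after the values were seen, was found for 2 of 53 CUFF transcripts (3.77%) and 29 of 11708 TCONS_ rows (0.248%). CUFF.31645.1 reached 0.061 with TCONS_00073159, with equal counts in 6 oocytes and differences of at most 5, at 18 to 72 counts per oocyte. CUFF.36492.1 reached 0.149 with TCONS_00078668, with differences of at most 6, and CUFF.16489.1 lay just past the limit at 0.260 with TCONS_00036166. Values for these 3 transcripts are uncertain, since the same reads may have been counted for both rows, and none of the 3 was called between stages.

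The transcripts that the rule set aside, and those next to it, are given as counts, since the rule chose them by these counts. CUFF.50214.1, paired with F8 (coagulation factor VIII, chromosome X, 75172715 to 75382615, minus strand), had 4 to 19 counts in the NSN oocytes, while SN oocytes held 0 to 5 and 4 of them had a count. CUFF.32885.1, paired with the long intergenic RNA Gm12718 (chromosome 4, 103382500 to 103492040, plus strand), had 1 to 10 counts in NSN oocytes and a count in 1 SN oocyte. CUFF.24169.1 had 1 to 6 counts in NSN oocytes and a count in 5 SN oocytes. Positions are those of the paired genes in GRCm38 by GENCODE vM21.

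Just outside the rule, CUFF.14418.1 and CUFF.26774.1 were detected in all 9 NSN oocytes and in 7 and 9 SN oocytes. CUFF.34840.1, CUFF.26780.1 and CUFF.4312.1 were detected in 8 NSN and 3 SN oocytes each, and 1 NSN oocyte without a count kept them in the set. CUFF.4312.1 was paired with Ccdc162, a coiled-coil protein gene at chromosome 10, 41538846 to 41716634, minus strand, with 0 to 13 counts per NSN oocyte (median 4) and 0 or 1 per SN oocyte. These last 3 were too sparse for the filter of the edgeR test.

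DESeq2, which filters by mean count in place of the number of oocytes, tested 186 CUFF transcripts and called 24, 21 lower and 3 higher, beside a background of 13% over 19692 rows. All 17 transcripts called by edgeR were among them. Another 6 had not entered the edgeR test, and are given as counts because they passed DESeq2's filter through their NSN counts and 3 of them lie next to the exclusion: CUFF.26780.1, CUFF.34840.1, CUFF.4312.1, CUFF.1607.1, CUFF.14668.1 and CUFF.5987.1, all lower in SN oocytes, with NSN medians of 3 to 7 counts and an SN median of 0 counts. In NSN oocytes CUFF.34840.1 reached 21 counts and CUFF.1607.1 19, while no SN oocyte had more than 5 counts of any of the 6. The remaining DESeq2 call was of a transcript that edgeR had tested and not called, which is not identified here.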

How the data were processed

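RNA counts of 26 single oocytes were analysed. Per the submitters' processing notes and the study's methods, reads were trimmed with Trim Galore, aligned to GRCm38 with HISAT2 2.1.0 (SAMtools 1.19.2) and counted in SeqMonk over a published oocyte transcriptome. The authors deposited raw counts per transcript, without normalization. Their table of a DESeq2 comparison, which holds fold changes and p-values, was not used. Columns were matched to oocytes by label, and 0 sample columns were left unused.

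Levels are CPM, with TMM-scaled library totals. Stages were compared with edgeR 4.0.16 (R 4.3.3; quasi-likelihood test with no term but stage, 9 NSN against 16 SN oocytes, the intermediate left out) over the 16657 rows that had 3 or more counts in 9 or more oocytes. Adjustment by Benjamini-Hochberg covered all of these rows, at a threshold of 0.05. Standard errors were derived from the quasi-F statistic. A transcript was detected with at least 1 count. Libraries were drawn down without replacement to the smallest total (seed 20). The share of counts, the number detected and the abundance are descriptions over the members and carry no test. DESeq2 1.42.0, other scalings and filters, mouse as a term and each mouse alone were alternatives, and leaving out each oocyte, covarying pairs and near-equal rows were added after the data had been seen. Python 3.11.15 with numpy 2.4.6 and pandas 2.3.3 was used, and the tests were checked on simulated data.

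The members, lists and alternatives were chosen with earlier results of these data known. Named transcripts are the 8 falls and up to 8 rises with the smallest adjusted p, the 8 with the highest mean CPM, the 3 largest falls and rises with a mean of at least 10 counts, the 4 with the largest ratio of SD to mean, those with a symbol, and those set aside by the rule or next to it. The remaining called falls, the covarying and near-equal transcripts and those called by DESeq2 without entering the edgeR test were named after their values were seen. Symbols of marker genes came from the study's lists of SN-missing and classifier transcripts (366 identifiers) and from 147 rows matched to GENCODE vM21. Sequences and positions of CUFF transcripts were not analysed here.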

Additional observations from a re-analysis of the deposited data

Results flagged for a closer look

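In 26 sets of NSN values of the named transcripts, Dixon's test for a single distant value among 9 oocytes set 4 apart. For independent sets of normally distributed values, chance alone sets apart about 1 set in 20. These sets share the same 9 oocytes and hold CPM on a linear scale, some from few counts. Whether 4 sets exceed chance was therefore not tested. NSN oocyte D-34 was the highest in 3 of them, with 59.4 CPM of CUFF.21851.1, 50.4 CPM of CUFF.35023.1 and 4.89 CPM of CUFF.25386.1, the transcript paired with Myo3a. The fourth was NSN oocyte C-8 with 2.94 CPM of CUFF.14418.1. Without oocyte D-34 the falls of CUFF.21851.1, CUFF.35023.1 and CUFF.25386.1 were still called by edgeR, with adjusted p-values of 0.000111, 0.00106 and 0.0287.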

How the results depend on the processing

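The 17 CUFF transcripts called became 36 without a filter on low counts, 8 in mouse C and 10 in mouse D, and 12 to 19 when 1 oocyte was left out. The 14 falls became 32 without a filter and 8 in mouse C, and 12 to 15 without 1 oocyte. The 3 rises became 1 with scaling by library size, 1 with libraries drawn down to the smallest total, 0 in mouse C, 0 in mouse D and 0 to 4 without 1 oocyte. Within mice fewer oocytes entered each fit. Other alternatives (DESeq2 size factors, at least 10 counts in at least 9 oocytes, mouse as a term, DESeq2, the set-aside transcripts kept in) gave 15 to 24 calls in all. The median abundance of 0.164 CPM became 3.01 over tested transcripts only, 0.166 with the set-aside transcripts kept in and 0 with the median over oocytes in place of the mean. The median log2 fold change ran from -0.24 to 0.06, positive in mouse D alone. Of single transcripts under single alternatives, 592 values kept direction and call, 51 lost the call, 1 gained it and 0 changed sign. With 42.6% of CUFF transcripts without a count and 14.6% tested, depth limits what can be said of most of them. Oocytes of both stages came from the same 2 mice, and with mouse as a block 16 transcripts were called, without CUFF.11278.1.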
